A study of Naumovozyma castellii with 4 samples.

Results

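Of the 5688 genes of *Saccharomyces castellii* with probes on a custom expression array, 170 (2.99%) were the only gene of their contig to have probes. A contig is a stretch of sequence joined from overlapping reads, and in this array the number of the contig and the number of the gene on it form the gene's identifier, so that Scas_306.1 is gene 1 of contig 306. The 503 contig numbers on the array included 181 with 1 gene. Of those 181 genes, 4 whose identifier ended in the letter d and 8 with a probe sharing 25 bases with a probe of another gene were left out, 1 gene being in both classes. The rule reads identifiers and probe sequences and no measured value, but it was set with earlier results of these data known. They were compared with 3594 genes, chosen with the same exclusions, on the 96 contigs that had 20 or more genes on the array.

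The yeast was strain NRRL Y-12630 (listed by GEO as *Naumovozyma castellii*), a relative of baker's yeast. It was grown in rich medium (CM) at 30°C to mid-log phase, and 4 biological replicates of total RNA, labelled with the green dye Cy3, were each hybridized to an array of their own together with genomic DNA of the same strain, labelled with the red dye Cy5. The study measured mRNA abundance in this way to set transcriptional output beside nucleosome positions. The 4 arrays form 1 group with no treatment and no swap of dyes, so that dye and sample cannot be told apart.

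In yeasts, genes lie close together, so that a long contig of a nuclear chromosome carries many of them. A draft genome assembled from shotgun reads breaks into contigs of very unequal length, and its shortest pieces can be ends of chromosomes, regions beside repeats, or reads that were joined to nothing else. Genomic DNA serves as the reference on such arrays because each single-copy sequence of the genome is present in it in equal amount. The RNA signal divided by the genomic DNA signal then sets genes measured by different probes on a common scale, provided that the genomic DNA signal of the gene was itself measured.

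Each gene had 2 probes of 55 bases. The signal of a gene is the median over its probes of the background-subtracted intensity on the log2 scale, and a level is a log2 signal, or a log2 ratio, minus that of the median gene of the array. A gene was called above or below the median gene when limma's treat test placed it more than 2-fold away at an adjusted p of 0.05 over all 5688 genes (two-sided, Benjamini-Hochberg). A spot was counted as well above background by the scanner software's own flag, so a gene had 8 spots in a channel over the 4 arrays. The level of 1 probe in the genomic DNA channel also depends on how well that probe binds. Among the comparison genes the standard deviation (SD) of the genomic DNA level over genes was 0.50, which gives the size of such differences together with real ones.

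The genes alone on their contig fell into 2 sets by their genomic DNA signal. In 87 of the 170 genes (51.2%) genomic DNA lay below the median gene, against 2.73% of all genes, and in 4 (2.35%) it lay above, against 2.94% of all genes. In the genes on large contigs the shares were 0.501% below and 1.64% above. The 87 genes were 56.1% of the 155 genes on the whole array with genomic DNA called below. The level was under -6 in 77 genes, from -6 to -2 in 9, from -2 to -1 in 4, from -1 to 1 in 74 and 1 or more in 6, so that few genes lay between the sets.

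**Figure D1:**
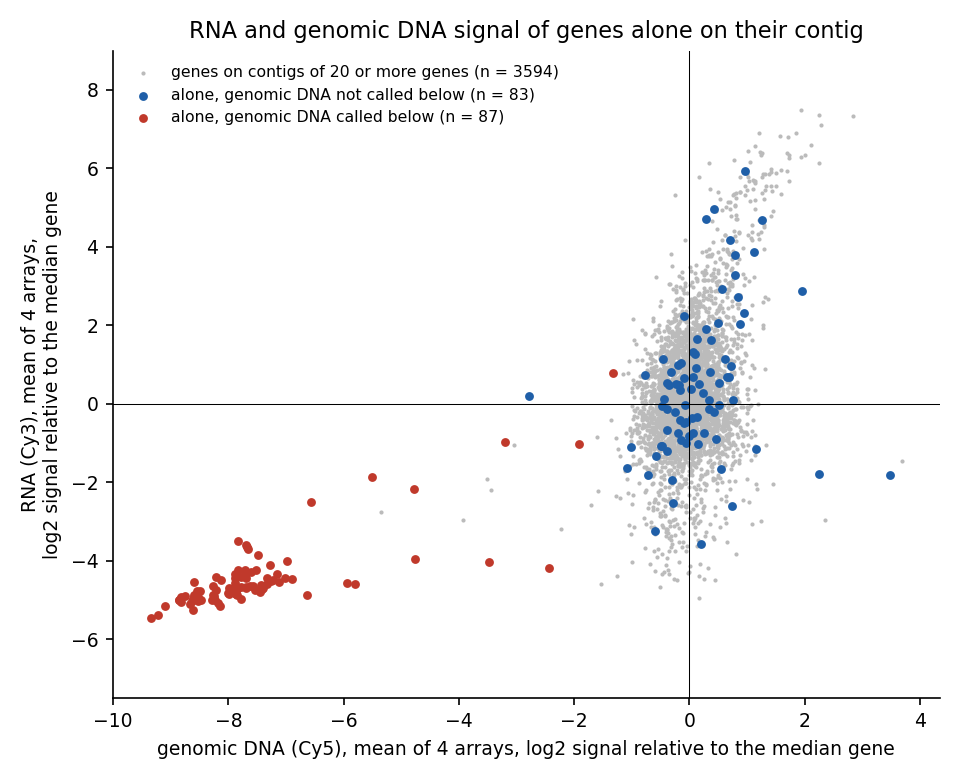
RNA level (Cy3, vertical) against genomic DNA level (Cy5, horizontal) of each gene, both as log2 signal relative to the median gene and as the mean of 4 arrays. The 87 red genes, alone on their contig with genomic DNA called below, lie mostly at the lower left with a median of -7.84 in genomic DNA and -4.67 in RNA, whereas the 83 blue genes lie among the 3594 grey genes of large contigs.

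The RNA of the genes alone on their contig was also mostly low. RNA was called below the median gene in 97 of the 170 genes (57.1%) against 16% of all genes, and above it in 20 (11.8%) against 21.4% of all genes. In the genes on large contigs the shares were 12.7% below and 21.6% above. Of the 97 genes with low RNA, 84 were genes with low genomic DNA. When dim spots were left out, RNA was called below in 23 of 97 fitted genes (both channels well above background) or 35 of 109 (genomic DNA well above background), 23.7% and 32.1% against 14.9% and 15.2% of all genes under the same filters.

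Under the reported processing, the log2 ratio went the other way from both of its channels. It was called above the median gene in 99 of the 170 genes (58.2%), against 22.3% of all genes, and below in 13 (7.65%), against 18.2% of all genes. In the genes on large contigs the shares were 20.5% above and 16.4% below. Of the 99 genes with a high ratio, 81 (81.8%) had genomic DNA called below, 79 had RNA called below and 15 had RNA called above. The excess of high ratios depended on how the signals were scaled. The scanner software's processed signals gave 12 genes above (7.06%, against 6.65% of all genes) and 10 below (5.88%, against 11.1%). Loess normalization gave 12 above (7.06%, against 4.61%) and 8 below (4.71%, against 8.23%). Normexp background correction gave 20 above (11.8%, against 21.5%) and 94 below (55.3%, against 21.5%). It also depended on dim spots, with 27 above (27.8%, against 21% of all genes fitted) and 14 below (14.4%, against 17.8%) when the spots well above background in both channels were used alone. When genomic DNA alone had to be so, 34 were above (31.2%, against 21.4%) and 14 below (12.8%, against 18.1%). Genomic DNA was called below in 85 to 92 of the genes under the 3 scalings, where 3.38% to 8.25% of all genes were. Under the 2 filters it was called below in 12 of 97 genes (12.4%, against 0.611% of all genes fitted) and in 24 of 109 (22%, against 1%).

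**Figure D2:**
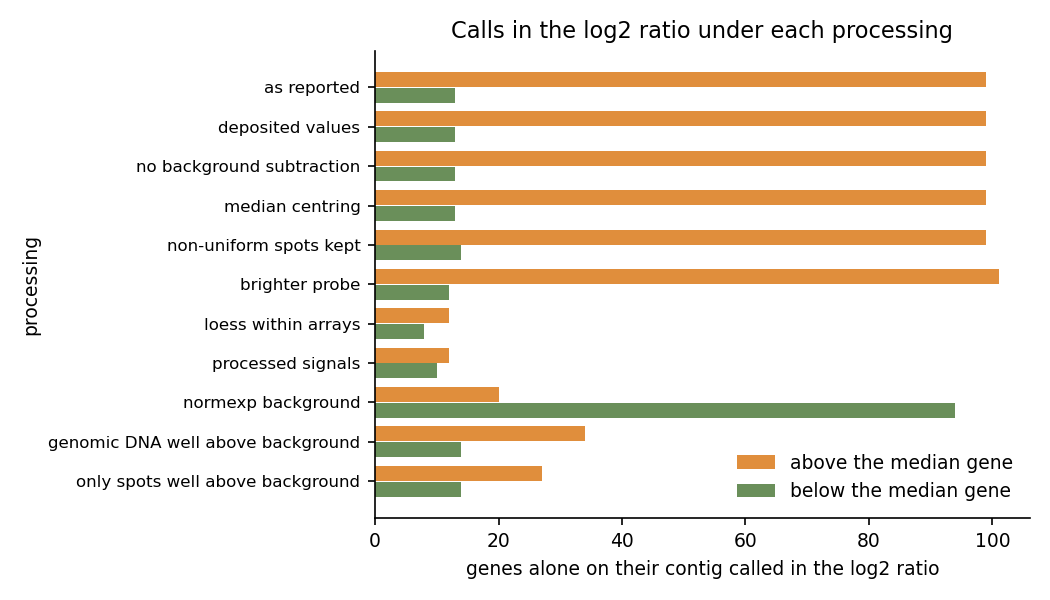
Number of genes alone on their contig (horizontal) whose log2 ratio was called above or below the median gene under each processing (vertical). The 99 genes above and 13 below as reported become 12 and 10 with processed signals and 20 and 94 with normexp background correction, and filters on dim spots leave fewer genes fitted.

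The median log2 ratio of the genes alone on their contig exceeded that of genes on large contigs by 2.25, 2.38, 1.67 and 2.34 on replicates 1 to 4, a mean difference of 2.16 ± 0.33 (SD, n = 4). The same difference was -2.61 ± 0.14 (SD, n = 4) in RNA and -2.27 ± 0.09 (SD, n = 4) in genomic DNA. The genomic DNA was a common reference, so its SD is that between hybridizations and not between cultures. The median lies in the gap between the 2 sets of genes. The sign of the difference in the ratio turned with normexp background correction, to -1.83 ± 0.18 (SD, n = 4). With processed signals the difference was -0.10 ± 0.35 (SD, n = 4), smaller than its SD. The differences also shrank or turned where dim genes were left out. Among the 80 genes (47.1%) with every spot well above background in both channels the difference from the 3448 such genes on large contigs was 0.086 in the ratio, 0.25 in RNA and 0.085 in genomic DNA. Of these 80 genes 22.5% were called above in the ratio, against 21.7% of all such genes, and 11.2% below, against 14.9%.

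The signals of the 87 genes with low genomic DNA lay close to those of the array's negative control spots, which carry sequences designed to match no sample. The median genomic DNA signal of their spots was 37, 35.2, 88.2 and 54.5 on replicates 1 to 4, against 17.5, 18.5, 35 and 27 for the 77 negative control spots of each array and 11392 to 11732 for the spots of all genes. Their median RNA signal was 63.8, 80.2, 97 and 91, against 49.5, 67, 68.5 and 63 for negative controls and 1916 to 2460 for all genes. Without quantile normalization, the median level of their log2 ratio was 3.16, 3.48, 2.85 and 3.10, and negative control spots gave 3.62, 4.03, 3.30 and 3.47 on the same arrays. Negative control spots thus had a ratio well above that of the median gene on all 4 arrays, and their residual signal was larger in the Cy3 channel than in the Cy5 channel.

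In 42 of the 87 genes no genomic DNA spot was well above background, in 41 some were, and in 4 all 8 were. For the 42 genes the genomic DNA level has no exact size, and the order of their levels carries no information. The lowest signal flagged well above background was 41, 118, 333 and 55 on replicates 1 to 4. At that signal, or at their own where it was higher, the 42 genes would lie 99.1-fold to 119-fold below the median gene. This is not a strict limit, because unflagged spots could be brighter. A probe of Scas_126.1 with no flagged genomic DNA spot had a signal of 401.5 on replicate 3. No gene on a large contig lacked genomic DNA signal in this way. RNA was well above background at no spot in 36 of the 87 genes, and 28 genes were at background in both channels throughout. The 4 lowest genomic DNA signals show this state. Scas_271.1 had genomic DNA signals of 9.9, 15.8, 20.9 and 29.6 and RNA signals of 37.3, 48.9, 53.7 and 63.8 on replicates 1 to 4. Scas_6.1, Scas_182.1 and Scas_266.1 had genomic DNA signals between 10.8 and 33.9 and RNA signals between 44.4 and 78.1. All 4 genes were called above the median gene in the ratio, with levels of 3.71 to 3.82 (adjusted p of 2.73e-07 to 1.79e-06, limma treat), and all 4 lay below it with processed signals and with normexp background correction. Neither channel had a spot well above background, so no fold is given for them.

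RNA was measured more firmly in a minority of the genes with low genomic DNA, 13 of which had RNA well above background at 4 or more of 8 spots. The following examples were chosen after their values were seen. Scas_208.1, the one gene of the 87 whose spots were all well above background in RNA and genomic DNA alike, had genomic DNA signals of 4485, 4607, 4726 and 4558, a level of -1.33 ± 0.05 (SD, n = 4), and an RNA level of 0.77. Its ratio was 3.92-fold above the median gene (adjusted p = 1.24e-06, limma treat). Scas_16.1 had RNA signals of 599.6, 481.2, 372.4 and 522.2 and genomic DNA signals of 471.2, 399.7, 408.5 and 405.4, and its 2 probes differed by 0.10 in the log2 ratio. Scas_126.1 had RNA signals between 346.1 and 471 with 7 of 8 spots well above background, but these lie between 2 unlike probes. The RNA signals of its probes were 758 to 915 and 158 to 242.5, and their mean log2 ratios before centring 2.63 and 0.68. Genomic DNA was well above background at 1 spot of Scas_126.1. Its genomic DNA signal of 470.3 on replicate 3 stood apart from 68.2 to 86.1 on the other arrays. The median genomic DNA level of the 87 genes was also highest on replicate 3, at -7.10 against -8.32 to -7.72. Their median ratio was lowest there, at 2.92 against 3.09 to 3.35.

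Of the 87 genes, 6 were not called above in the ratio. Scas_391.1 was called below, at -1.88 ± 0.23 (SD, n = 4), with genomic DNA signals of 2078, 2043, 2152 and 2242 and RNA signals of 97.5 to 136.5. Its probes also had the highest GC content of any gene on the array, 62.7%. The other 5, Scas_7.1, Scas_80.1, Scas_84.1, Scas_320.1 and Scas_396.1, had levels between -0.68 and 1.25 that were not called.

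The 83 genes whose genomic DNA was not called below gave shares of calls near those of all genes. The ratio was called above in 18 (21.7%, against 22.3% of all genes) and below in 12 (14.5%, against 18.2%). RNA was called above in 20 (24.1%, against 21.4%) and below in 13 (15.7%, against 16%). The 83 genes were set apart by a channel of the ratio, whereas the shares of all genes include genes with low genomic DNA. Their median levels were 0.12 in the ratio, 0.26 in RNA and 0.09 in genomic DNA, and genomic DNA was well above background at all 8 spots in 82 of them. The ratio repeated more closely in them too, with a median SD between arrays of 0.11, against 0.35 in the genes with low genomic DNA and 0.10 in the genes on large contigs.

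**Figure D3:**
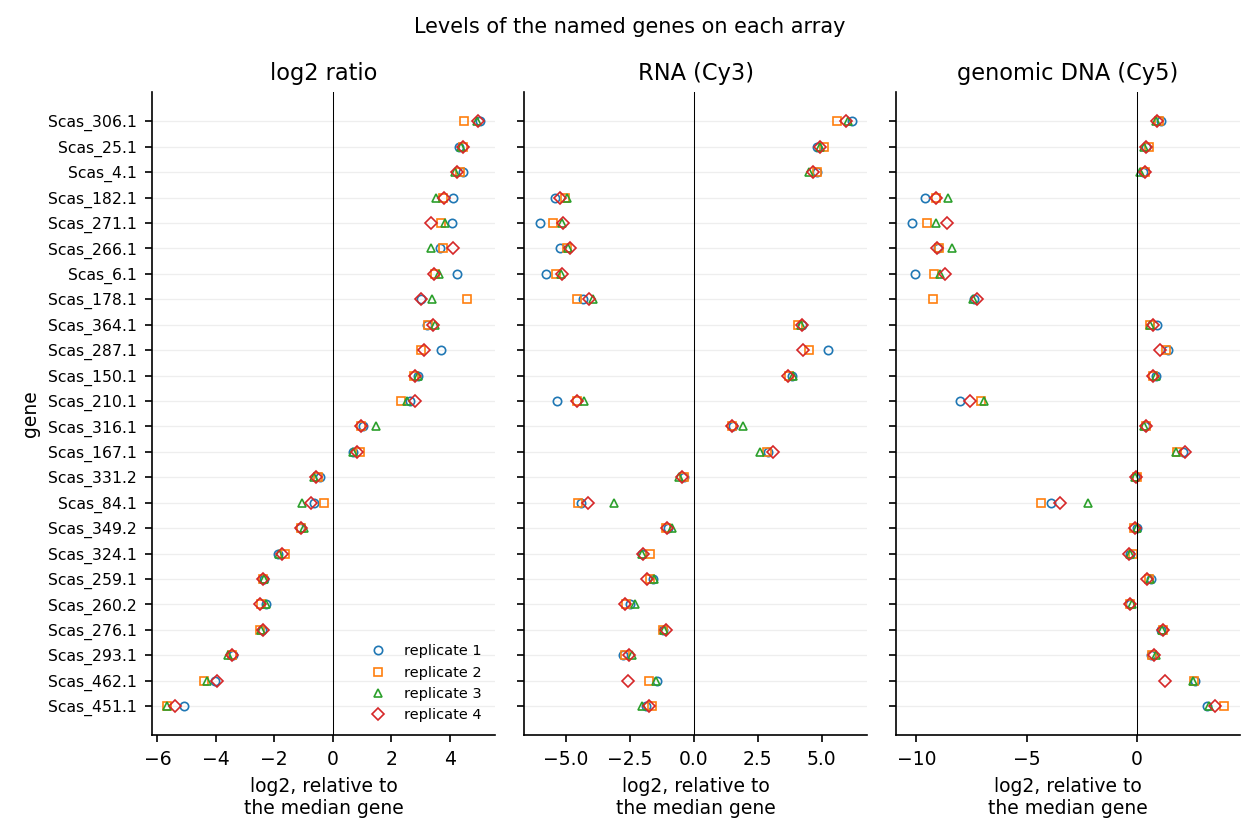
Log2 ratio, RNA and genomic DNA of the named genes (rows) on each of the 4 arrays (symbols), as log2 values relative to the median gene. Scas_306.1 lies highest in the ratio, at 4.85, and Scas_451.1 lowest, at -5.45, while Scas_271.1, Scas_6.1, Scas_182.1 and Scas_266.1 have ratios of 3.71 to 3.82 with both channels far below the median gene.

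The genes with the highest ratios among those with every spot well above background had RNA called above the median gene and genomic DNA levels of 0.29 to 1.25 that were not called. None of their identifiers could be tied to a gene name, so the products of these genes are not known here. Scas_306.1 had RNA signals of 176750, 108182, 124858 and 136994 and genomic DNA signals of 24743, 23212, 20741 and 21208 on replicates 1 to 4. Its ratio was 28.8-fold above the median gene (4.85 ± 0.25 on the log2 scale, SD, n = 4, adjusted p = 9.25e-08, limma treat). Scas_25.1, with RNA signals of 58605 to 77227, lay at 4.41 ± 0.05 (SD, n = 4), and Scas_4.1, with 43598 to 68216, at 4.31 ± 0.12 (SD, n = 4). These 3 genes also had the highest RNA signals of all 170 genes. Scas_364.1 (3.35), Scas_287.1 (3.28) and Scas_150.1 (2.87) followed, all called above. Scas_287.1 was fitted without replicate 3, where both of its spots were non-uniform, and had the largest SD between arrays in this class, 0.38 over 3 arrays. Scas_316.1, with the next largest SD of 0.25, was at 1.11 and was not called (adjusted p = 0.336, limma treat). The level of these genes depended on scaling. After loess normalization none of the 6 highest kept its call, with Scas_25.1 at 1.01, Scas_306.1 at 0.71 and Scas_364.1 at 0.20, and with Scas_150.1, Scas_287.1 and Scas_316.1 below the median gene. With processed signals Scas_25.1 and Scas_4.1 kept theirs, and Scas_306.1 lay at 0.91.

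The 6 genes with the lowest ratios were taken from the same class, with every spot well above background. Scas_293.1 had RNA signals of 357.2, 346.2, 353.3 and 383.2 and genomic DNA signals of 18459, 18494, 20936 and 19293, and its ratio was 11-fold below the median gene (-3.47 ± 0.07, SD, n = 4, adjusted p = 2.56e-08, limma treat). Scas_276.1 (-2.44), Scas_260.2 (-2.37), Scas_259.1 (-2.37) and Scas_324.1 (-1.77) were also called below. The SD between arrays of these 4 genes was 0.03 to 0.11. Scas_260.2 and Scas_324.1 lost their calls with processed signals (-1.08 and -0.79) and after loess normalization (-0.27 and -0.19). Scas_462.1, the lowest in this class, lay at -4.18 ± 0.21 (SD, n = 4). Outside it, Scas_451.1 (-5.45) and Scas_395.2 (-3.91), each with RNA well above background at 7 of 8 spots, and Scas_391.1 were also called below (the last 2 chosen after their values were seen).

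In 4 genes genomic DNA was called above the median gene, and in 3 of them the low ratio came with bright genomic DNA as well as low RNA. Scas_451.1 had genomic DNA signals of 105925, 178268, 108240 and 134374, which was 11.2-fold above the median gene (adjusted p = 4.6e-05, limma treat), and RNA signals of 465.4 to 715.7. Its ratio of -5.45 ± 0.27 (SD, n = 4) was the lowest of all 170 genes. Scas_462.1 had genomic DNA signals of 73717, 68414, 65797 and 27238, the value on replicate 4 resting on its dimmer probe because the other spot was non-uniform there. Scas_276.1 was 2.21-fold above the median gene in genomic DNA. Scas_167.1, with genomic DNA 3.85-fold above, also had RNA called above, and its ratio of 0.79 was not called. Scas_287.1 had a similarly high genomic DNA level, 1.25, that was not called. The number of genes called above in genomic DNA was 2 to 4 when 1 array was left out (2 without replicate 2 and 2 without replicate 3). It rose to 15 (8.82%) with processed signals, 17 (10%) after loess normalization and 19 (11.2%) after normexp background correction, as it did over all genes (8.79%, 11% and 11.8%).

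The 2 probes of a gene differed by more than 1 in the log2 ratio in 18 genes (10.6%), against 4.90% of the genes on large contigs. All 18 were among the 90 genes with a spot not well above background, and none (0) among the other 80, against 4.47% of such genes on large contigs. The 2 probes overlapped by 15 bases or more in 33.8% of these 80 genes, against 15.5% of such genes on large contigs. Overlapping probes read partly the same sequence, so the 2 shares are not directly comparable. A difference that includes a dim spot has no exact size. Scas_84.1 had the largest measured difference, 6.50. One of its probes had genomic DNA signals of 12964, 15484, 14612 and 14442 and the other of 49, 20.5, 419 and 70, while the RNA signals of both stayed between 55.5 and 315. Scas_178.1 (3.18) and Scas_210.1 (2.43) were named by the same rule, with all genomic DNA signals at 275 or less, and their order carries no information. In 3 further genes, chosen after their values were seen, 1 probe was bright in both channels and the other dim in both. For Scas_258.1 the bright probe had genomic DNA signals of 13606 to 18514 and RNA signals of 11254 to 18188, and the dim probe 88 to 129 and 58 to 125.5. For Scas_3.1 the genomic DNA signals were 1124 to 1596 at 1 probe and 33 to 60 at the other. For Scas_170.1 they were 24120 to 31781 and 241 to 391, and on replicate 3 the bright spot was non-uniform, so that the gene's genomic DNA signal fell to 308.5 from 2768 to 3242 on the other arrays. A gene value formed from 2 such probes is the middle of 2 unlike signals.

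The share of genes with low genomic DNA fell with the number of genes on the contig. It was 51.2% with 1 gene, 26.4% with 2 genes (24 of 91), 1.56% with 3 to 4, 0% with 5 to 9, 0.68% with 10 to 19 and 0.501% with 20 or more. The share called above in the ratio, under the reported processing, was 58.2%, 37.4%, 18.8%, 19%, 21.8% and 20.5% in the same order. Genes just outside the limit, on contigs with 2 genes, thus held an intermediate place in both measures. The 91 genes were those left after the exclusions. Without exclusions, both genes had low genomic DNA on 13 of the 54 contigs with 2 genes, 1 gene on 5 and neither on 36. The genes on the large contigs with low genomic DNA, 18 in all, had a median genomic DNA level of -1.44, against -7.84 in the 87 genes alone on their contig.

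**Figure D4:**
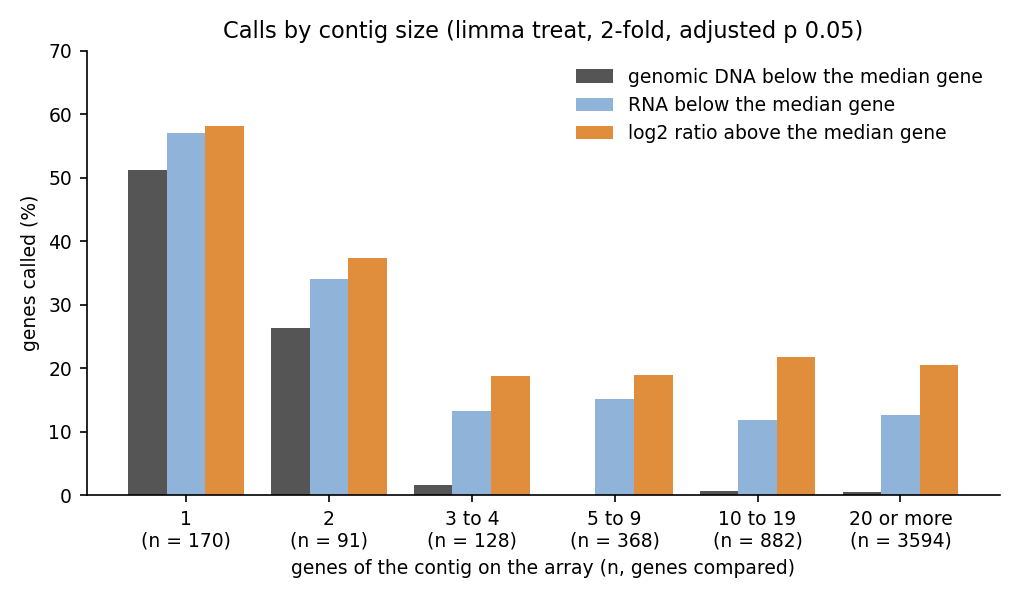
Percent of genes (vertical) called below the median gene in genomic DNA, below it in RNA and above it in the log2 ratio, by the number of genes of the contig that are on the array (horizontal). Genomic DNA was called below in 51.2% of genes alone on their contig and in 26.4% of genes on contigs with 2 genes, and in at most 1.56% in the larger classes; the bars for the ratio are those of the reported processing, and calls above in the ratio fell from 99 to 12 of 170 genes with processed signals or loess normalization.

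The 2 sets of genes also lay apart in contig number, which the choice of genes did not use. The contigs with 1 gene had numbers from 3 to 504 with a median of 209, and those with 20 or more genes had numbers from 605 to 721, so number and size went together on this array. Genomic DNA was called below in 49 of 51 genes (96.1%) on contigs 1 to 100, in 11 of 29 on 101 to 200, in 17 of 41 on 201 to 300, in 10 of 34 on 301 to 400 and in none of 15 on higher numbers (0 of 14 and 0 of 1). These bins were chosen after the values were seen. The 2 exceptions on contigs 1 to 100 were Scas_4.1 and Scas_25.1, which after Scas_306.1 had the highest RNA signals of the 170 genes. The highest contig number with low genomic DNA was 396.

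**Figure D5:**
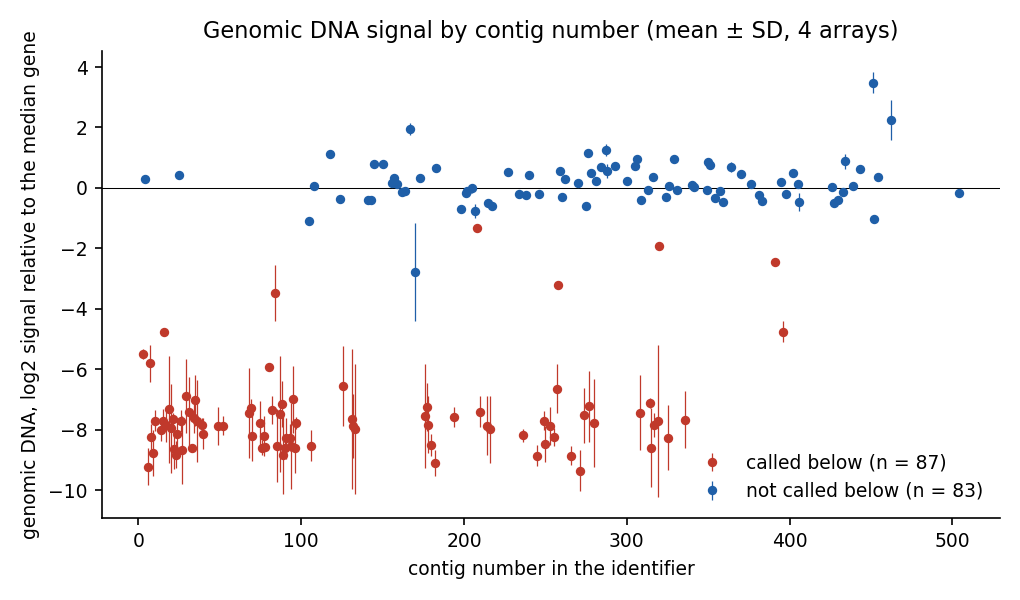
Genomic DNA level (vertical, log2 signal relative to the median gene, mean ± SD of 4 arrays) of the 170 genes alone on their contig against the contig number in their identifier (horizontal). Red genes, called below, make up 49 of the 51 genes on contigs 1 to 100 and none above contig 396.

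The identifiers allowed a check of whether the genes were alone on their contig beyond the array. The gene number was 1 in 164 of the 170 genes and 2 in the other 6, so for those 6 a gene numbered 1 has no probe on the array, and whether such a gene exists was not tested. The 6 genes had genomic DNA levels from -0.29 to 0.36, with none called below. Their ratios ran from -3.91 to 0.31, with 2 called below and none above. Scas_260.2 was the gene at -2.37 described above, Scas_349.2 lay at -1.06 and Scas_331.2 at -0.53, neither called. Without replicate 3 Scas_349.2 was called below (adjusted p = 0.0462, limma treat).

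Probes of the 170 genes differed from those of large contigs in a few features. Both probes of a gene overlapped by 15 bases or more in 66 genes (38.8%), against 15.6%, and in 39 of the 87 genes with low genomic DNA and 27 of the other 83. Such overlapping probes do not give independent readings of a gene, and among the 104 genes with separate probes genomic DNA was called below in 48 (46.2%), against 1.69% of all genes with separate probes. Median probe GC content was 40.0% in the 170 genes and 39.1% in the comparison genes. A reading frame free of stop codons, in any frame, ran through both probes in 93.5% of the 170 genes, against 85.1%. The share was 97.7% in the 87 genes with low genomic DNA and 100% in the 18 genes on large contigs with low genomic DNA. Such a frame was also common on the opposite strand, in 71.8% of the 170 genes, 70.3% of the comparison genes and 77% of the 87. Whether the probes lie in coding sequence was not tested. These features were not particular to genes alone on their contig. In genes on contigs with 2 genes, probes overlapped in 44% and median GC content was 40%. A stop-free frame ran through both probes in 90.1% of them.

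Spot quality varied between arrays. Of the 340 spots of the 170 genes per array, 204, 194, 178 and 216 were well above background in RNA on replicates 1 to 4 and 192 to 201 were so in genomic DNA, against 96.9% to 99.5% and at least 99.9% of the spots of genes on large contigs. Replicate 3 had the fewest in RNA and also the most non-uniform spots, 20 of 340. No spot of these genes was saturated. The counts nevertheless held without any single array, with 99 to 100 genes called above in the ratio and 87 to 88 called below in genomic DNA.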

How the data were processed

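The deposited scanner files (Feature Extraction 10.1.1.1 per the file headers) give intensity values as medians over pixels, separately for spots and for the local background around them. They also give processed intensity values, after the software's own background and dye correction. The authors' deposited table holds 1 log2 ratio of Cy3 over Cy5 per gene. Its rows carry no gene names and were paired with genes in order of first occurrence. All values compared (5657 to 5688 genes per array) equalled, within 1e-04, the log2 of the mean ratio over probes without background subtraction, with non-uniform spots left out. The paper instead describes background-subtracted signals and a median over probes. The columns of the deposited table were not centred (medians -2.11, -2.21, -2.41 and -2.19), and the table was used as an alternative.

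In each channel the median background was taken off the median signal. Non-uniform spots, and those with non-uniform backgrounds, were left out, as was 1 spot of the 170 genes at or below background. The log2 ratio was taken, and the median over probes gave the gene value. Ratios were quantile normalized and centred on the median gene, and each channel was centred on the median gene of its array. limma 3.58.1 in R 4.3.3 fitted all 5688 genes, and treat tested for more than 2-fold from the median gene with Benjamini-Hochberg adjustment at 0.05. The scripts were tested on simulated data. p-values cover the spread between 4 arrays, and the number of arrays and probes limits the precision. For genomic DNA, a common reference, that spread is between hybridizations.

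Genes were named by rule: with every spot well above background, the 6 highest and 6 lowest ratios and the 2 largest SDs, then over all 170 genes the 4 highest and 4 lowest genomic DNA signals, the 3 highest RNA signals, the 3 largest differences between probes and up to 3 with gene number 2. Other named genes were chosen after their values were seen, including Scas_7.1, Scas_80.1, Scas_320.1 and Scas_396.1. The genes and the tests were chosen with earlier results of these data known. None of the 170 identifiers (0) is in the reference gene table of 5867 genes (assembly ASM23734v1), so no gene names are given. A planned match of probes to proteins, which does not need the identifiers, was not run. Alternatives covered signals, background correction, spot filters, probes, normalization, the test, single replicates and the choice of genes.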

Additional observations from a re-analysis of the deposited data

Results flagged for a closer look

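Among 75 sets of 4 array values screened for 1 array far from the other 3, 7 stood out by Dixon's criterion, where chance alone gives about 1 in 20. The median RNA level of the 170 genes was -2.35 on replicate 3 and -2.62 to -2.61 on the others. The median difference in RNA level from genes on large contigs was -2.41 on replicate 3 and -2.68 to -2.67 on the others. Replicate 3 also had the most non-uniform spots and the fewest RNA spots well above background, whose part in this was not tested.

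In single genes, the genomic DNA level of Scas_178.1 was -9.25 on replicate 2 and -7.45 to -7.25 on the others, with 2 of 8 spots well above background. The genomic DNA level of Scas_266.1 was -8.39 on replicate 3 and -9.05 to -8.99 on the others, with no spot above background. The RNA level of Scas_316.1 was 1.93 on replicate 3, where 1 of its probes was non-uniform, and 1.49 to 1.53 on the others. The RNA level of Scas_324.1 was -1.72 on replicate 2 and -2.02 to -1.98 on the others. The genomic DNA level of Scas_462.1 was 1.25 on replicate 4, where its brighter spot was non-uniform, and 2.53 to 2.65 on the others.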

How the results depend on the processing

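No paired analysis was possible because the 4 arrays form 1 group. The planned match of probes to proteins was not run. Leaving out 1 array at a time gave 99 to 100 genes called above and 13 to 15 below in the ratio, 19 to 20 above and 96 (on each of the 4 occasions) below in RNA, and 2 to 4 above and 87 to 88 below in genomic DNA. Median differences from genes on large contigs were then 2.08 to 2.32 in the ratio, -2.68 to -2.59 in RNA and -2.29 to -2.22 in genomic DNA.

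With processed signals the median difference was -0.10 in the ratio (reversed), -2.83 in RNA and -2.47 in genomic DNA, with 12 genes above in the ratio and 15 above in genomic DNA. With normexp background correction the median difference was -1.83 in the ratio (reversed) and -1.17 in genomic DNA. There were 20 genes above and 94 below in the ratio and 19 above in genomic DNA. After loess normalization the median difference was 0.034 in the ratio and -2.25 in RNA, with 12 above and 8 below in the ratio and 17 above in genomic DNA. Without background subtraction the difference in the ratio was 1.80. The brighter probe alone gave -2.39 in RNA and -1.33 in genomic DNA. Calls without a minimum fold (eBayes) put 38 genes below in the ratio.

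Using the spots well above background in both channels alone gave differences of 0.34, -0.0073 and 0.022 (reversed) in ratio, RNA and genomic DNA, with 27 genes above in the ratio, 23 below in RNA and 12 below in genomic DNA among 97 fitted. Requiring this of genomic DNA alone gave 0.45, -0.18 and -0.068, with 34, 35 and 24 genes among 109 fitted. Genes with every spot well above background gave 0.086, 0.25 (reversed) and 0.085 (reversed), with 18, 10 and 1 genes among 80. These filters remove genes whose signals are low, which are those in question. Genes with separate probes gave 1.72, -1.22 and -0.50, with 58 above and 7 below in the ratio, 52 below in RNA and 48 below in genomic DNA among 104. Keeping genes that share 25 bases gave -2.33 in RNA and -1.70 in genomic DNA, with 7 above in genomic DNA, and keeping identifiers ending in d gave -2.07 in genomic DNA. Against all genes on large contigs, or those on contigs of 5 or more genes, no difference moved by more than the spread between arrays.

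The 87 genes with low genomic DNA were all called with processed signals, after loess, without background subtraction and without any single array. Of the 87, 84 were called with normexp and 84 with the brighter probe alone. With only spots well above background in both channels 11 were called, among 97 genes fitted. Requiring this of genomic DNA alone, 23 were called, among 109 genes fitted. Of 351 levels of named genes under alternatives, 302 kept their direction and call, 23 changed sign, 16 lost only their call and 10 gained one. The 351 include levels without 1 array, of which only that of Scas_349.2 changed. Calls lost without a change of sign were those of Scas_150.1, Scas_178.1, Scas_260.2, Scas_306.1, Scas_324.1 and Scas_364.1 with processed signals. After loess they were Scas_25.1, Scas_4.1, Scas_178.1, Scas_260.2, Scas_266.1, Scas_306.1, Scas_324.1 and Scas_364.1. Scas_178.1 also lost its call under both filters on dim spots. Levels that changed sign with processed signals were those of Scas_167.1 (-1.92), Scas_182.1 (-0.60), Scas_210.1 (-0.79), Scas_266.1 (-0.11), Scas_271.1 (-0.65), Scas_287.1 (-0.079) and Scas_6.1 (-0.66). With normexp they were Scas_167.1 (-0.45), Scas_178.1 (-2.16), Scas_182.1 (-3.01), Scas_210.1 (-2.57), Scas_266.1 (-2.85), Scas_271.1 (-3.24) and Scas_6.1 (-3.19). After loess they were Scas_150.1 (-0.12), Scas_167.1 (-2.25), Scas_182.1 (-0.079), Scas_210.1 (-0.014), Scas_271.1 (-0.46), Scas_287.1 (-0.34), Scas_316.1 (-0.18) and Scas_6.1 (-0.39). With the deposited values Scas_84.1 lay at 0.90. The cause of these changes was not tested.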

Other observations

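The 8 genes alone on their contig that were left out for sharing 25 bases with a probe of another gene had genomic DNA levels from -2.15 to 4.20, with 4 called above the median gene and 3 below, and ratios from -6.10 to 0.09. Outside the 170 genes, genomic DNA was called below in 68 genes of the array.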
